A study of Mus musculus with 8 samples.

Results

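The genes described here are 7 genes of cholesterol synthesis and its control that were chosen by symbol, *Hmgcs1*, *Idi1*, *Fdps*, *Sqle*, *Cyp51*, *Srebf2* and *Insig1*, out of 23282 rows of liver counts. Each symbol had 1 row, and all 7 rows passed the filter on low counts. The count of reads at the 3′ ends of transcripts was measured in livers of C57BL/6 mice that the labels give as male and 4 weeks old. The control group received saline, and the endotoxemic group received 25 mg/kg LPS, the bacterial lipopolysaccharide that sets off a cytokine storm. The LGK974 group received LGK974, an inhibitor of the acyltransferase PORCN that Wnt proteins need for secretion. The labels of the LGK974 group name the compound without a dose or LPS, and the study's text gives 60 mg/kg LGK974 before 25 mg/kg LPS, with livers taken 6 h after LPS. The labels call the LPS-injected mice controls and the saline-injected mice normal, and the study's names are used here.

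Cholesterol is made from acetyl-CoA by the mevalonate pathway. *Hmgcs1* encodes the synthase that forms HMG-CoA, *Idi1* isomerizes isopentenyl diphosphate, and *Fdps* makes farnesyl diphosphate. *Sqle* encodes squalene epoxidase, which oxidizes squalene ahead of ring closure, and *Cyp51* encodes the demethylase that removes a methyl group from lanosterol. SREBP2, the product of *Srebf2*, is the main transcription factor of these genes. It is cut and moves to the nucleus when sterols in the endoplasmic reticulum are low, and INSIG1, the product of *Insig1*, holds its escort SCAP in the endoplasmic reticulum when sterols are high. *Insig1* is itself a target of SREBP2. The liver is a main site of both the synthesis of cholesterol and its uptake from plasma.

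The 8 deposited libraries held 6 distinct ones, since endotoxemic library 3 matched library 1 on all 23282 rows and endotoxemic library 4 matched library 2. Each identical pair was counted once, so every group had 2 distinct libraries. Totals ran from 9142116 to 15222439 counts per library, and 3 counts, taken as the lowest signal that counting error allows, were worth 0.197 to 0.328 CPM. Nothing in the labels says that the libraries came from separate mice, so p-values measure the spread between these libraries. *Xist*, made from the silenced X chromosome of female cells, had 1171 to 3115 counts per control or endotoxemic library, against 3 and 7 in the LGK974 libraries. The Y-linked gene *Ddx3y* had 0 counts in the 4 distinct control and endotoxemic libraries, against 1755 and 1392 in the LGK974 libraries. The 4 former libraries thus went against the label male, and in each comparison that holds the LGK974 group the treatment and the sex of the mice cannot be told apart. The comparison of the endotoxemic with the control group was not split by these genes.

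The rows of the table follow genomic order, and 579 of them carry a symbol whose gene lies elsewhere in the genome than its neighbouring rows. None of the 7 genes was among them. *Hmgcs1* stood between *1700074H08Rik* and *Nim1k*, *Idi1* between *Wdr37* and *Idi2*, *Fdps* between *Rusc1* and *Pklr*, and *Sqle* between *Zfp572* and *E430025E21Rik*. *Cyp51* stood between *Akap9* and *Mterf1b*, *Srebf2* between *Ccdc134* and *Shisa8*, and *Insig1* between *Htr5a* and *En2*. In the build GRCm38, *Hmgcs1* lies at chr13:119690379-119708260 on the plus strand, *Idi1* at chr13:8885501-8892451 on the plus strand and *Sqle* at chr15:59315077-59331192 on the plus strand. *Srebf2* lies at chr15:82147181-82205379 and *Insig1* at chr5:28071363-28078662, both on the plus strand. *Fdps* lies at chr3:89093588-89101959 and *Cyp51* at chr5:4081145-4104746, both on the minus strand. The 3′ end of *Cyp51* overlaps that of *Akap9* on the other strand by 166 bases, and whether the counting used the strand is not given in the sources used here. *Akap9* had 703 to 1355 counts per library and *Cyp51* 1503 to 4384. *Fdps* overlaps the annotated gene *Gm43738* on its own strand by 7512 bases and *Hmgcs1* overlaps *Gm48342* on the other strand, and neither of these has a row in the table. The near copy *Idi2* had 0 counts in every library.

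RefSeq promoters of GRCm38.p6 were matched for 5 of the 7 genes, and the 250 bases before each start were searched on both strands for 4 motifs. The sterol regulatory element of SREBP was searched as TCACNCCAC, and it was found in *Hmgcs1*, where TCACCCCAC ran from 137 to 129 bases before the start. That is 1 of the 5 genes, beside 1.045% of all 32536 promoters of that length. Only exact matches were counted. The *Srebf2* stretch printed below holds TCACCCCAT, which differs from the pattern in its last base. The CCAAT box, searched as CCAAT, was present in 5 of 5 promoters against 33.81% of all promoters. The GC box, searched as GGGCGG, was also present in 5 of 5, against 32.97%. The E-box, searched as CACGTG, was present in 1 of 5, that of *Insig1*, against 6.036%. A match of letters is a description and not a site of binding. The promoter of *Hmgcs1* is shown for its sterol element, and those of *Insig1* and *Srebf2* because these genes went opposite ways in the endotoxemic group. Each is printed 5′ to 3′ on the plus strand. *Hmgcs1* is shown with all 250 searched bases, up to the RefSeq start. *Insig1* and *Srebf2* are shown with 201 and 162 bases, which end before the GENCODE gene start, so the rest of the searched stretch is not shown. Matches to the sterol element and to the CCAAT box are in capitals, the latter read as ATTGG where it lies on the other strand.
Hmgcs1: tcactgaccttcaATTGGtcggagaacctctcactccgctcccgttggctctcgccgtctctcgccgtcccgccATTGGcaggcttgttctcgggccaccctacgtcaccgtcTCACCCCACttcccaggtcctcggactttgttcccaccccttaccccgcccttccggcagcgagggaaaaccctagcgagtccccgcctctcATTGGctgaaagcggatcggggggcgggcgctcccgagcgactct
Insig1: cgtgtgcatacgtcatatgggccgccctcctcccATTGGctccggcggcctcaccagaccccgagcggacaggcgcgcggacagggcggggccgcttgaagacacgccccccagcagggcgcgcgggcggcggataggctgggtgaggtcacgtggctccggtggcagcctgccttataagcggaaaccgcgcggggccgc
Srebf2: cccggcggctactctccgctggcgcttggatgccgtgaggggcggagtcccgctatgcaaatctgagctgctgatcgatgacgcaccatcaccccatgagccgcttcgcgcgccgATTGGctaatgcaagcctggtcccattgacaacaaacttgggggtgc
The positions of these stretches are chr13:119690101-119690350 for *Hmgcs1*, chr5:28071162-28071362 for *Insig1* and chr15:82147019-82147180 for *Srebf2*.

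The 7 genes did not share a common course across the groups, and each is given in every library, in TMM-normalized CPM (counts scaled to library size), library 1 before library 2. Differences are log2 fold changes ± SE from the quasi-likelihood F test of edgeR, and adjusted p is that test's p after Benjamini-Hochberg adjustment over 12701 rows, called below 0.05. Levels are compared within a gene, since counts from 3′ ends are not scaled between genes.

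*Hmgcs1*, at the entry to the pathway, stood at 433 and 441 CPM in control, 329 and 349 CPM in endotoxemic and 613 and 663 CPM in LGK974 libraries. The groups did not overlap, with the endotoxemic libraries lowest and the LGK974 libraries highest. The difference of the endotoxemic from the control group was -0.37 ± 0.18 and missed the threshold (adjusted p = 0.129). With each library left out in turn it ran from -0.41 to -0.27. *Hmgcs1* rose 1.88-fold from the endotoxemic to the LGK974 group, a log2 fold change of 0.91 ± 0.18 (adjusted p = 0.023), and was 1.46-fold higher in the LGK974 than in the control group (adjusted p = 0.0424). Both calls were lost in a fit on the 2 groups alone (adjusted p = 0.0703 and 0.0719) and without any 1 control or endotoxemic library (adjusted p from 0.0794 to 0.223 and from 0.0774 to 0.223).

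*Idi1* stood at 32.7 and 44.1 CPM in control, 69.6 and 34.0 CPM in endotoxemic and 175 and 50.8 CPM in LGK974 libraries. The control and endotoxemic ranges overlapped, as did the endotoxemic and LGK974 ranges, and LGK974 library 1 stood far above the rest. The test called *Idi1* higher in the LGK974 than in the control group, by 1.55 ± 0.53 (adjusted p = 0.0474). Without LGK974 library 1 that difference was 0.40 (adjusted p = 0.375), so the call rests on this library. It was also lost by DESeq2 (adjusted p = 0.107) and without either control library or endotoxemic library 2 (adjusted p from 0.0543 to 0.231). The other differences, 0.43 ± 0.52 for the endotoxemic against the control group (adjusted p = 0.532) and 1.12 ± 0.52 for the LGK974 against the endotoxemic group (adjusted p = 0.237), missed the threshold. The latter passed with no filter on low counts (adjusted p = 0.000165) and without LGK974 library 2 (1.75, adjusted p = 0.00341).

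*Fdps* stood at 63.2 and 56.7 CPM in control, 71.9 and 79.6 CPM in endotoxemic and 125 and 146 CPM in LGK974 libraries. The groups did not overlap, and the step into the LGK974 group was the wider. The endotoxemic group differed from the control group by 0.34 ± 0.19, short of the threshold (adjusted p = 0.183). *Fdps* rose 1.79-fold from the endotoxemic to the LGK974 group (0.84 ± 0.19, adjusted p = 0.0389) and was 2.26-fold higher in the LGK974 than in the control group (1.18 ± 0.19, adjusted p = 0.00161).

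*Sqle* had the largest rise of the 7 genes in the endotoxemic group. It stood at 37.2 and 44.4 CPM in control, 116 and 111 CPM in endotoxemic and 143 and 156 CPM in LGK974 libraries. The control libraries stood apart below the other groups, which lay closer together without overlapping. *Sqle* was 2.78-fold higher in the endotoxemic than in the control group (1.47 ± 0.19, adjusted p = 0.000326) and 3.65-fold higher in the LGK974 than in the control group (1.87 ± 0.19, adjusted p = 0.000115). The difference between the LGK974 and endotoxemic groups was 0.40 with a 95% interval from -0.03 to 0.82 (adjusted p = 0.247).

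*Cyp51* stood at 140 and 145 CPM in control, 206 and 207 CPM in endotoxemic and 295 and 297 CPM in LGK974 libraries. The libraries of each group nearly coincided, and no groups overlapped. *Cyp51* was 1.45-fold higher in the endotoxemic than in the control group (0.54 ± 0.17, adjusted p = 0.0338) and 2.08-fold higher in the LGK974 than in the control group (1.06 ± 0.18, adjusted p = 0.00179). The step between the endotoxemic and LGK974 groups was of like size, 0.52 ± 0.17, and missed the threshold (adjusted p = 0.115). With each library left out in turn it ran from 0.49 to 0.53.

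*Srebf2*, the gene of the transcription factor, stood at 10.8 and 11.0 CPM in control, 23.8 and 16.5 CPM in endotoxemic and 20.1 and 20.2 CPM in LGK974 libraries. The control libraries lay below all others, and the LGK974 libraries fell within the endotoxemic range. *Srebf2* was 1.85-fold higher than in the control group both in the endotoxemic group (0.89 ± 0.26, adjusted p = 0.0211) and in the LGK974 group (0.89 ± 0.26, adjusted p = 0.0253). The LGK974 group differed from the endotoxemic group by 0.00, with a 95% interval from -0.57 to 0.57. *Srebf2* rested on 116 to 299 counts per library. The miRNA gene *Mir33*, which lies within *Srebf2*, has no row of its own in the table.

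*Insig1* was the only one of the 7 genes to fall past the threshold in the endotoxemic group. It stood at 65.0 and 68.5 CPM in control, 32.6 and 26.1 CPM in endotoxemic and 53.8 and 50.6 CPM in LGK974 libraries. The endotoxemic libraries were lowest, and the LGK974 libraries lay between the other groups without overlap. *Insig1* was 2.27-fold lower in the endotoxemic than in the control group (-1.18 ± 0.20, adjusted p = 0.00145) and rose 1.78-fold from the endotoxemic to the LGK974 group (0.83 ± 0.20, adjusted p = 0.0464). The LGK974 group differed from the control group by -0.35 with a 95% interval from -0.80 to 0.09 (adjusted p = 0.195).

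**Figure D1:**
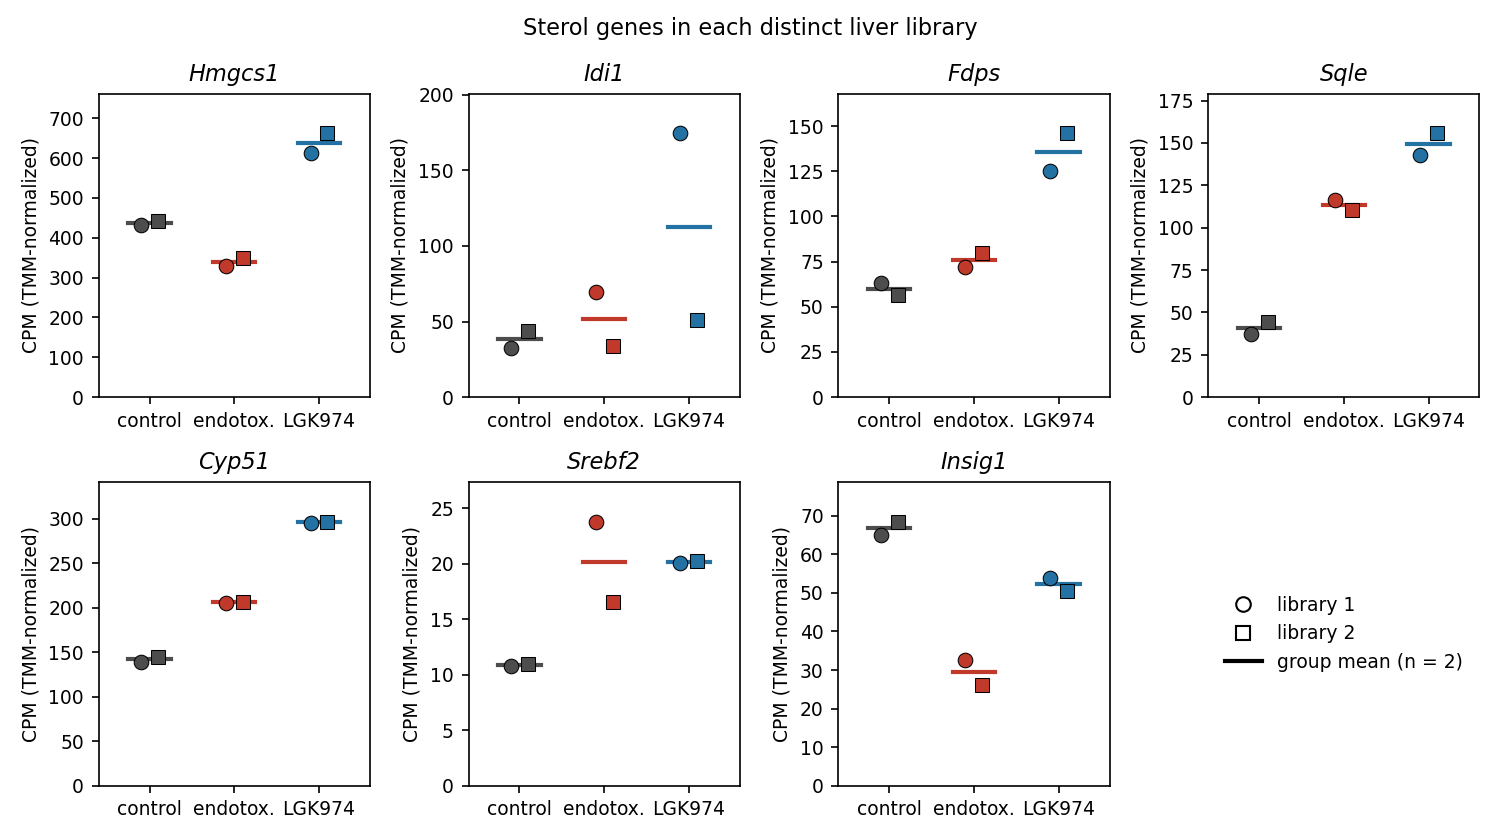
TMM-normalized CPM (vertical axis, from 0) of each of the 7 genes in the 6 distinct libraries, by group, with circles for library 1, squares for library 2 and lines for group means (n = 2). *Insig1* is lowest in the endotoxemic libraries at 32.6 and 26.1 CPM, *Sqle* is lowest in the control libraries at 37.2 and 44.4 CPM, and *Idi1* has 1 LGK974 library at 175 CPM.

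The comparison of the endotoxemic with the control group asked how LPS moved the sterol genes. *Sqle*, *Srebf2* and *Cyp51* rose and *Insig1* fell, which made 3 of 7 higher and 1 of 7 lower. Over all 12701 rows tested, 43.4% passed, with 20.4% higher and 23.0% lower. The median log2 fold change of the 7 genes was 0.43, against 0.01 over all rows tested. The calls of *Srebf2* and *Cyp51* were lost when either control library or endotoxemic library 1 was left out, with adjusted p from 0.0991 to 0.202, and that of *Cyp51* also without endotoxemic library 2 (adjusted p = 0.147). In that comparison the summed CPM of 10 hepatocyte markers was 107080 to 143170 in the control and 81664 to 110370 in the endotoxemic libraries, with 7 of the 10 lower and 1 higher. The summed CPM of the 4 neutrophil markers on rows in genomic order was 1.76 to 2.16 in the control and 92.5 to 107 in the endotoxemic libraries, and all 4 were higher. Lower were 4 of 7 sinusoidal endothelial, 3 of 7 Kupffer cell and 4 of 8 stellate cell markers, with 1 of each higher. The sums of these lists did not fall. Sinusoidal endothelial markers summed to 266 to 274 CPM in the control and 413 to 416 CPM in the endotoxemic libraries. Kupffer cell markers summed to 188 to 204 and 202 to 207 CPM, and stellate cell markers to 427 to 439 and 537 to 581 CPM. *Camp* and *Ngp* were at 0 counts in the control libraries. In such bulk samples fewer cells of a type and less RNA per cell cannot be told apart, and the part of these markers in the results was not tested.

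The comparison of the LGK974 with the endotoxemic group asked how the PORCN inhibitor changed the response to LPS. *Hmgcs1*, *Fdps* and *Insig1* rose, 3 of 7 genes. Of all rows tested 5.62% passed, with 2.80% higher and 2.82% lower. None of the 7 was lower by edgeR, either adjusted or at an unadjusted p under 0.05 (22.9% of all rows in either direction), and 0 were lower by DESeq2. The median of the 7 genes was 0.83, against 0.03 over all rows. With either control library or either endotoxemic library left out, 0 of the 7 passed the threshold, with log2 fold changes from 0.84 to 0.95 for *Hmgcs1*, from 0.74 to 0.92 for *Fdps* and from 0.68 to 0.97 for *Insig1*. In these settings between 23 and 126 of all rows were called higher, against 356 with every library. Summed hepatocyte markers were 88539 to 89991 CPM in the LGK974 libraries, and the neutrophil markers were 64.6 to 69.9 CPM. None of the 4 neutrophil markers and 1 of the 10 hepatocyte markers, which was higher, passed the test here. Of the Kupffer cell markers 1 of 7 was lower, with sums of 202 to 207 CPM in the endotoxemic and 127 to 164 CPM in the LGK974 libraries. Of the sinusoidal endothelial markers 1 of 7 was lower, though their sum was higher, at 413 to 416 CPM in the endotoxemic and 446 to 567 CPM in the LGK974 libraries. The sex of the libraries differs in step with this comparison, as given above.

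The LGK974 and control groups differ by both agents and by sex. All of the genes except *Insig1* were higher in the LGK974 group, 6 of 7. Of all rows tested 34.1% passed, with 16.4% higher and 17.7% lower. The median was 1.06, against 0.02 over all rows. By edgeR 0 of 7 were lower, also at an unadjusted p under 0.05 (44.6% of all rows in either direction), and 0 by DESeq2. Without either control library 3 genes passed, *Sqle*, *Cyp51* and *Fdps*. In this comparison 4 of 4 neutrophil markers were higher, and 5 of 10 hepatocyte, 5 of 7 sinusoidal endothelial, 4 of 7 Kupffer cell and 3 of 8 stellate cell markers were lower, with 1 of each of these lists higher. The sinusoidal endothelial sum was nonetheless higher, at 266 to 274 CPM in the control and 446 to 567 CPM in the LGK974 libraries. So was the stellate cell sum, at 427 to 439 and 449 to 545 CPM. The Kupffer cell sum was lower, at 188 to 204 and 127 to 164 CPM. The part of these markers in the differences of the 7 genes was not tested. The 3 comparisons share libraries, and their calls are therefore given side by side and not as independent results.

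**Figure D2:**
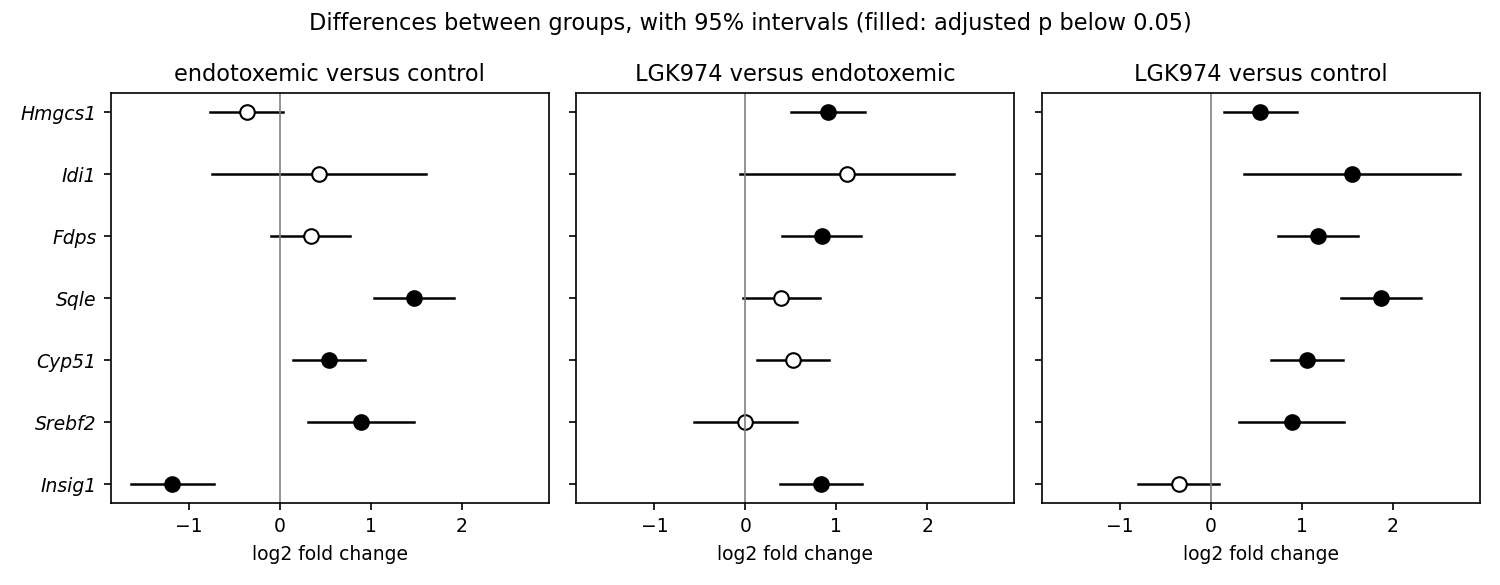
Log2 fold changes (horizontal axis) of the 7 genes with 95% intervals in each of the 3 comparisons, where filled points have an adjusted p below 0.05. In the endotoxemic group *Insig1* lies at -1.18 and *Sqle* at 1.47, while against the endotoxemic group all 7 genes of the LGK974 group lie at 0.00 or above.

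The other enzymes of the pathway gave 16 further genes, all of them tested. In the endotoxemic group 2 of 16 rose and 6 of 16 fell against the control group, beside 20.4% higher and 23.0% lower of all rows, and the median was 0.10 against 0.01 over all rows. *Lbr*, a sterol reductase and lamin receptor, rose by 1.29 and *Ggps1*, which makes geranylgeranyl diphosphate, by 1.10 (adjusted p = 0.00497 and 0.0435). The steepest fall was that of *Sc5d*, a sterol desaturase late in the pathway, from 463 and 396 CPM in control to 95.4 and 79.0 CPM in endotoxemic libraries, a log2 fold change of -2.30 (adjusted p = 3.36e-05). *Mvk*, mevalonate kinase, and *Erg28*, whose product scaffolds sterol demethylation, followed with -1.24 and -1.14 (adjusted p = 0.00812 and 0.00225). The count of 6 lower became 2 without control library 1 and 3 without either endotoxemic library, and that of 2 higher became 0 without control library 1 and 1 without control library 2 or endotoxemic library 2.

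From the endotoxemic to the LGK974 group 7 of the 16 enzymes rose, beside 2.80% of all rows, with a median of 0.76. By edgeR 0 fell, beside 2.82% of all rows. None of the 16 was lower at an unadjusted p under 0.05 (22.9% of all rows in either direction) or by DESeq2, which called 627 of all rows lower. *Mvk* rose by 1.83 (adjusted p = 0.0116), *Erg28*, whose row carries the older symbol *0610007P14Rik*, by 1.23 (adjusted p = 0.0148), and *Hsd17b7*, a sterol ketoreductase, by 1.19 (adjusted p = 0.0185). The level of *Mvk* was 8.07 and 9.17 CPM in the endotoxemic and 24.8 and 36.7 in the LGK974 libraries, and its control libraries at 23.7 and 17.1 lay between them. The count of 7 fell to 0 without either endotoxemic library, to 3 without either control library and to 4 in a fit on the 2 groups alone. Set against the control group, the LGK974 group had 6 of the 16 higher and 3 lower, beside 16.4% and 17.7% of all rows. *Lss*, which closes the sterol rings, was higher by 1.63, *Mvd*, mevalonate diphosphate decarboxylase, by 1.59 and *Hsd17b7* by 1.32 (adjusted p = 0.000645, 0.00066 and 0.00168). *Sc5d*, *Tm7sf2*, a sterol reductase, and *Ebp*, a sterol isomerase, were lower (log2 fold changes of -1.47, -1.13 and -0.79, adjusted p = 0.000505, 0.0123 and 0.0171), and the count of 3 lower became 1 without control library 1.

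**Figure D3:**
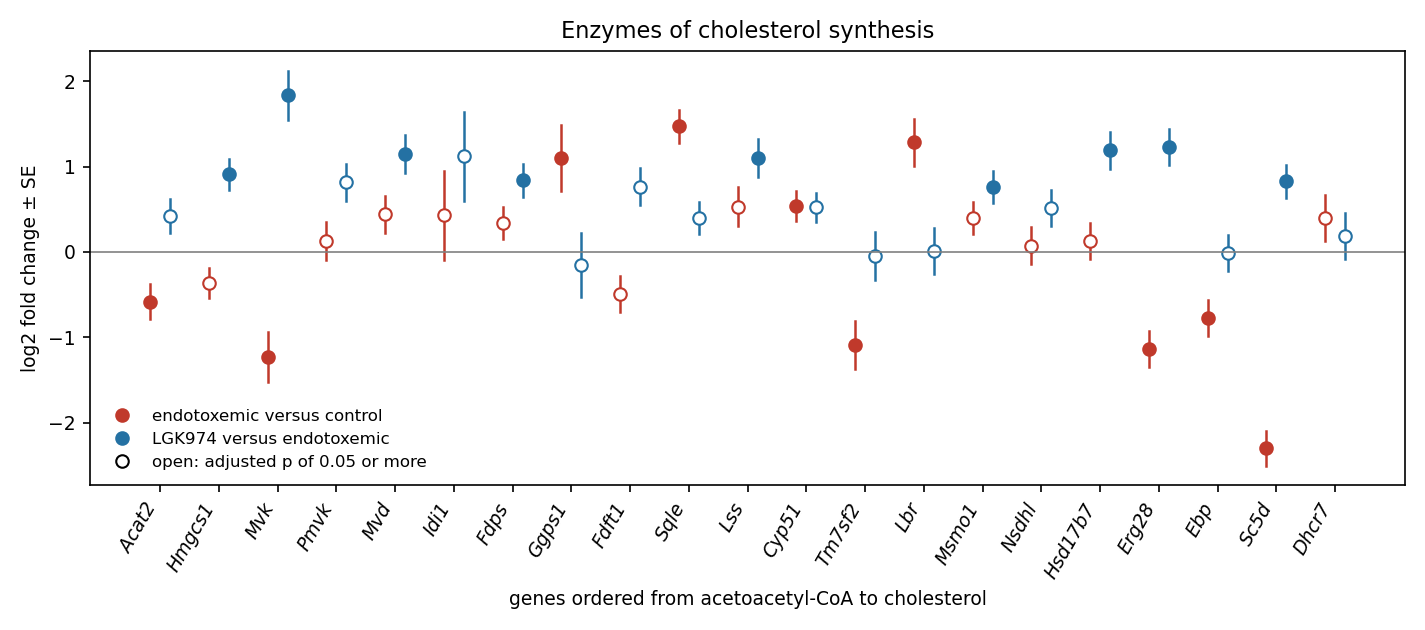
Log2 fold changes ± SE (vertical axis) of enzymes of cholesterol synthesis in the order of the pathway, red for the endotoxemic against the control group and blue for the LGK974 against the endotoxemic group, with open points at an adjusted p of 0.05 or more. *Sqle* and *Cyp51* lie above 0 in red at 1.47 and 0.54, *Sc5d* lies at -2.30, and the blue filled points all lie above 0.

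The 11 genes of SREBP processing and sterol-regulated degradation include *Scap*, the escort of SREBP, and *Insig2*, the paralogue of *Insig1*. In the endotoxemic group 4 of 11 fell and 1 of 11 rose, beside 23.0% lower and 20.4% higher of all rows, with a median of -0.65. *Srebf1*, which encodes the SREBP of fatty acid synthesis, dropped from 62.8 and 81.9 CPM in control to 13.7 and 8.31 CPM in endotoxemic libraries, a log2 fold change of -2.71 (adjusted p = 0.000508). *Insig2* fell from 244 and 215 to 52.2 and 48.7 CPM (-2.18, adjusted p = 3.11e-05), and *Scap* from 102 and 91.7 to 22.5 and 24.1 CPM (-2.05, adjusted p = 4.86e-05). *Srebf1* and *Srebf2* thus moved in opposite directions. *Ube2g2*, a ubiquitin-conjugating enzyme, rose by 0.83 (adjusted p = 0.0299), and 0 of the 11 were higher without any 1 control or endotoxemic library. In a fit on the 2 groups compared, 2 of the 11 were higher in the endotoxemic than in the control group. None of the 11 passed the threshold between the LGK974 and endotoxemic groups by edgeR, beside 5.62% of all rows, or by DESeq2. At an unadjusted p under 0.05, 2 were higher and 1 lower, beside 22.9% of all rows in either direction. By edgeR 1 was higher without LGK974 library 1 or with no filter on low counts, and 1 was lower without LGK974 library 2. Against the control group *Srebf1*, *Insig2* and *Scap* were lower in the LGK974 group (log2 fold changes of -2.68, -1.80 and -1.50, adjusted p = 0.000685, 0.000115 and 0.000353). *Ube2g2* was higher by 0.97, a call lost without control library 2, and the counts were again 4 lower and 1 higher of 11, beside 17.7% and 16.4% of all rows.

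Uptake and intracellular sterol transport were represented by 15 genes, of which 13 were tested. *Npc1l1* had 0 counts in every library and *Gramd1b* did not pass the filter. In the endotoxemic group 9 of the 13 fell, beside 23.0% of all rows, with a median of -1.09. By edgeR 0 rose, beside 20.4% higher of all rows. At an unadjusted p under 0.05 or by DESeq2 0 rose as well, and shares of all rows for these are not given here. The count of 9 lower became 5 without endotoxemic library 1. *Vldlr*, the receptor of VLDL, and *Npc1*, which exports cholesterol from lysosomes, fell in the endotoxemic group (log2 fold changes of -4.27 and -3.75, adjusted p = 6.94e-05 and 7.8e-06). *Npc1* stood at 129 and 121 CPM in control, 8.51 and 10.02 CPM in endotoxemic and 20.8 and 30.0 CPM in LGK974 libraries. From the endotoxemic to the LGK974 group *Npc1* rose by 1.46 and *Stard4*, a sterol carrier, by 0.97 (adjusted p = 0.0141 and 0.0338), 2 of 13 genes beside 2.80% of all rows. By edgeR 0 fell, beside 2.82% of all rows, and also at an unadjusted p under 0.05 (22.9% of all rows in either direction) or by DESeq2. The count of 2 became 0 without either endotoxemic library or in a fit on the 2 groups alone, 1 without either control library and 4 without LGK974 library 2. Against the control group 6 were lower in the LGK974 group, beside 17.7% of all rows, and 0 were higher (16.4% of all rows) by edgeR, at an unadjusted p under 0.05 or by DESeq2. *Vldlr*, *Npc1* and *Scarb1*, the HDL receptor, were lower (log2 fold changes of -4.02, -2.29 and -1.57, adjusted p = 9.74e-05, 0.000102 and 0.00126).

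*Lrp1*, an endocytic receptor, and *Lipa*, the lysosomal acid lipase, were the only listed sterol genes on rows out of genomic order. The row that carries the symbol *Lrp1* held 3081 and 3703 control counts and 0 counts in every endotoxemic and LGK974 library. The row that carries the symbol *Lipa* held 2108 and 3103 control counts and 0 to 15 counts elsewhere. Among their genomic neighbours, the place of *Lrp1* was taken by a row labelled *Vnn1* and that of *Lipa* by a row labelled *Gper1*. In a reading by place, control counts were kept from the row that carries the symbol. Endotoxemic and LGK974 counts were taken from the row at the gene's place. This assumes that the symbols are right in the control libraries only, which was not tested. The difference of the endotoxemic from the control group was then -1.39 for *Lrp1* (adjusted p = 0.00105) and -3.14 for *Lipa* (adjusted p = 3.19e-05). That of the LGK974 from the control group was -1.63 and -2.51 (adjusted p = 0.000641 and 0.000119). The counts of 9 lower and 0 higher in the endotoxemic group were unchanged by this reading, and the median became -1.10.

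**Figure D4:**
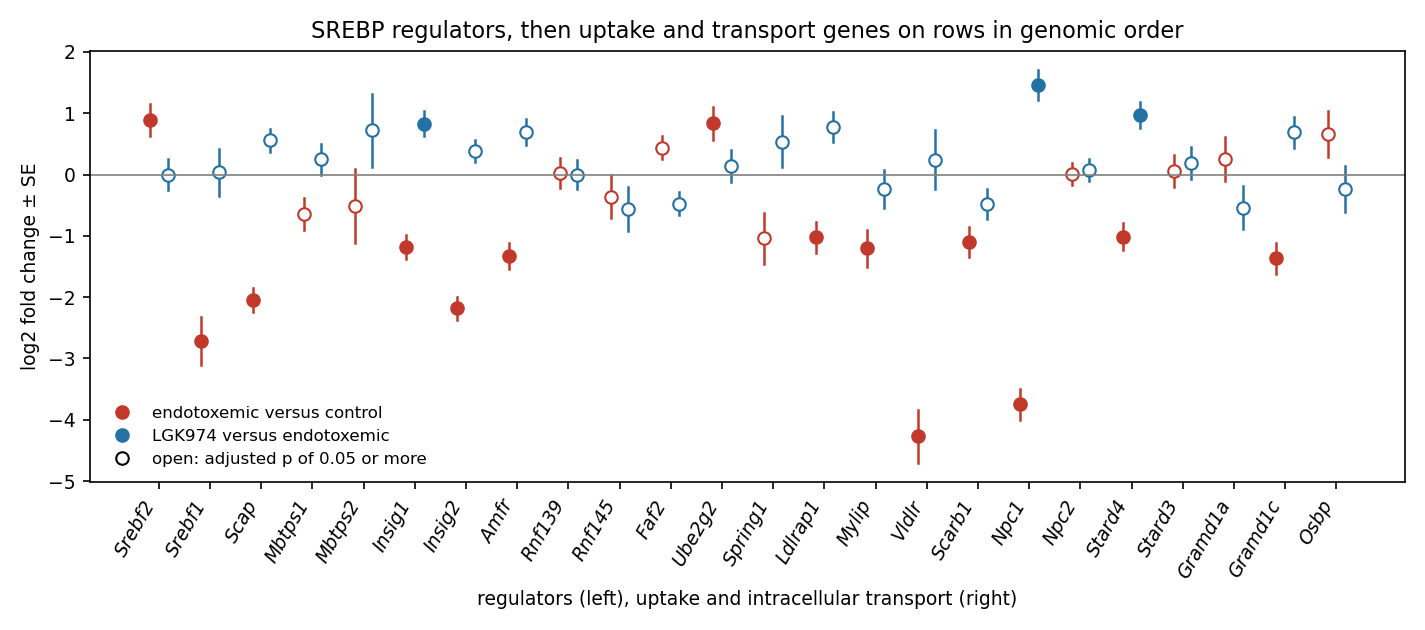
Log2 fold changes ± SE (vertical axis) of SREBP regulators and of uptake and transport genes whose rows lie in genomic order, red for the endotoxemic against the control group and blue for the LGK974 against the endotoxemic group, with open points at an adjusted p of 0.05 or more. *Srebf2* and *Ube2g2* are the red filled points above 0, and the blue filled points are *Insig1*, *Npc1* and *Stard4*.

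Esterification, efflux and liver X receptors were covered by 9 genes. *Abca1*, which exports cholesterol to apolipoprotein A-I, rose in the endotoxemic group from 59.6 and 91.5 to 296 and 356 CPM, by 2.11 (adjusted p = 0.00071). *Abcg8* and *Abcg5*, which together form the exporter of sterols into bile, fell (log2 fold changes of -3.52 and -3.45, adjusted p = 6.97e-06 and 1.92e-05), and *Nr1h3*, the liver X receptor alpha, also fell (-1.05, adjusted p = 0.00752). These made 1 of 9 higher and 3 of 9 lower, near the 20.4% and 23.0% of all rows, with a median of -0.05. None of the 9 passed between the LGK974 and endotoxemic groups by edgeR, beside 5.62% of all rows, or by DESeq2. At an unadjusted p under 0.05, 2 were higher and 0 lower, beside 22.9% of all rows in either direction. By edgeR 1 was higher and 2 were lower without LGK974 library 1, and 1 was higher with no filter on low counts. Against the control group *Abca1* was higher by 1.49 in the LGK974 group, a call lost without control library 1, and *Abcg8*, *Abcg5* and *Nr1h3* were lower (log2 fold changes of -2.98, -2.48 and -0.77, adjusted p = 1.69e-05, 0.000103 and 0.0351).

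The genes whose profile lay nearest the mean profile of the 7 genes were found over the 6 distinct libraries from the root mean square difference of centred log2 CPM. They were *Klhdc10* at 0.0750, *Rpl37* at 0.0785, *Wdr73* at 0.0911, *Cope* at 0.0966 and *Zfp747* at 0.0972. The mean profile itself lay at -0.46 and -0.35 in control, 0.00 and -0.24 in endotoxemic and 0.62 and 0.42 in LGK974 libraries. That mean hides unlike courses. *Insig1* ran from 0.48 and 0.55 in the control to -0.51 and -0.83 in the endotoxemic libraries, whereas *Sqle* ran from -1.24 and -0.99 to 0.40 and 0.33.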

How the data were processed

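The authors sequenced 3′ ends of liver RNA and deposited the count of reads per gene symbol, as whole numbers without normalization. The submitters' processing notes name Bowtie2, edgeR and the build mm10, without versions. Counting tools and the strand setting are not given in the sources used here. Reads at 3′ ends without molecular identifiers are not independent molecules, so floors cover counting error only.

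Identical libraries were counted once, which left 6 of 8. Rows were kept by filterByExpr by group (12701 of 23282, or 54.6%), normalized by TMM and fitted with 1 quasi-likelihood model of the group in edgeR 4.0.16 under R 4.3.3, where the biological coefficient of variation was 0.239 in common. Each comparison was tested at a Benjamini-Hochberg adjusted p of 0.05. DESeq2 1.42.0 was among the 17 alternatives. An exact permutation test of 2 against 2 libraries cannot go below p = 0.333 and was not used. The fit was tested on simulated data.

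Row order was checked against RefSeq positions of GRCm38.p6: a row out of order lay over 2 Mb from its ordered neighbours, and 445 of 579 such rows were matched to another row's place. With reassigned symbols, endotoxemic and LGK974 counts came from the row at the gene's place, and control counts stayed with the symbol. Gene positions are from GENCODE for GRCm38. The members and lists were chosen with earlier results of these data known. Some genes fixed for the lists are not reported here, and the counts cover the others. All 7 members, the genes on rows out of order and, per list and comparison, the 3 largest rises and falls past the threshold are named, with the 5 nearest profiles.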

Additional observations from a re-analysis of the deposited data

How the results depend on the processing

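Of the 17 alternatives, those with other scalings, without the 45S ribosomal RNA, with other filters, with reassigned symbols or by DESeq2 left the counts of genes called among the 7 within 1.5 times those given, and other scalings moved the median of all rows by less than 0.1 on the log2 scale. With the identical libraries counted as separate samples the endotoxemic group had 2 genes lower than the control group, and the LGK974 group had 5 higher than the endotoxemic group. Against the control group *Hmgcs1* then passed as lower and *Fdps* as higher (adjusted p = 0.00802 and 0.0346). Against the endotoxemic group *Sqle* and *Cyp51* passed as higher in the LGK974 group (adjusted p = 0.0251 and 0.00395). That setting counts the same libraries again. A fit on the 2 groups compared gave 0 of 7 for the LGK974 against the endotoxemic group. With each library left out in turn, the endotoxemic group against the control group had 1 to 3 genes higher and 1 to 2 lower, the LGK974 group against the endotoxemic group 0 to 4 higher, and the LGK974 group against the control group 3 to 6 higher. Fewer libraries, or fewer degrees of freedom, enter those fits.

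Some differences that missed the threshold with every library changed sign. With each library left out in turn, *Idi1* ran from -0.11 (without endotoxemic replicate 1) to 0.86 for the endotoxemic against the control group, and from -0.027 (without LGK974 replicate 1) to 1.75 for the LGK974 against the endotoxemic group. *Srebf2* in the LGK974 against the endotoxemic group came to -0.0143 with RLE size factors and by DESeq2, -0.0107 with rows out of genomic order left out and -0.0019 with no filter on low counts, and ran from -0.24 to 0.26 with each library left out. The cause was not tested. Among the 7 genes the lowest count was that of *Srebf2*, 116 in control library 1.

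Libraries that share a replicate number deviated from their group means with correlations of 0.14 for the endotoxemic and control groups, 0.061 for the LGK974 and endotoxemic groups and -0.0075 for the LGK974 and control groups. With 2 libraries per group the deviations of both mirror each other, so each comparison gives 1 value. That value cannot tell whether libraries of the same number share a batch or a pairing. A fit with a replicate block kept 3 genes higher and 1 lower for the endotoxemic against the control group. It gave 2 higher for the LGK974 against the endotoxemic group, with *Insig1* at an adjusted p of 0.0508, and 5 higher for the LGK974 against the control group, with *Idi1* at 0.0674. Of the 16 other enzymes, 1 was higher with the block in the endotoxemic than in the control group, against 2 without it.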
